A study of Mus musculus with 6 samples.

Results

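The mTORC1 brake genes are a set of 10 mouse genes whose products restrain the kinase complex mTORC1 or the translation it drives. They are Ddit4, Ddit4l, Sesn1, Sesn2, Sesn3, Deptor, Akt1s1, Tsc1, Eif4ebp1 and Eif4ebp2. They were chosen by name, with earlier results of these data known, and were found through their Entrez gene IDs. All 10 were among the 13363 genes with deposited values. RNA from the gastrocnemius, a calf muscle, was sequenced from male Balb/c mice in 2 groups of 3 samples. The C26 group had been inoculated under the skin of the right flank with 500000 cells of colon-26 (C26), a mouse colon adenocarcinoma line whose tumors cause wasting. The Control group bore no tumor. The mice were 6 weeks old at purchase and were acclimated for 1 week, and none of the sources used here gives the day of collection for the sequenced muscles. The model rests on this line alone, and the whole muscle was sampled with every cell type in it. The samples are labelled as replicates, with no further word on the animals, so the p-values below measure the spread between these samples. RNA levels alone were measured here, and the activity of mTORC1 was not.

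mTORC1 is built on the kinase mTOR with its partners Raptor and mLST8. Amino acids bring it to the lysosome through the Rag GTPases, and the small GTPase Rheb switches it on there. The active complex phosphorylates S6 kinase and the 4E-BP proteins, which raises translation, and in muscle it is a main driver of protein synthesis. The brakes act at successive points. Ddit4, also called Redd1, is induced by stress and by glucocorticoids and acts through the TSC complex, and Ddit4l (Redd2) is its close relative, abundant in skeletal muscle. Tsc1 stabilizes Tsc2, the protein that turns Rheb off. The sestrins bind GATOR2 and so hold back the amino acid branch. Deptor binds mTOR, and Akt1s1 (PRAS40) binds Raptor. The 4E-BPs, encoded by Eif4ebp1 and Eif4ebp2, hold the cap-binding factor eIF4E until mTORC1 phosphorylates them.

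Levels are given as scaled TPM. For these, the deposited FPKM (a read density corrected for transcript length and for the total of mapped reads) were rescaled to a sum of 1000000 in each sample and divided by TMM factors, which align the bulk of the genes between samples. Scaled TPM are per transcript length, so levels of different genes may be compared. The FPKM summed to between 531061 and 585169 in C26 samples and between 626992 and 688300 in Control samples, and the TMM factors lay between 0.903 and 1.08. The files give FPKM and no counts were analysed here, which leaves the sequencing depth unknown. Muscle identity was clear in all samples, with Acta1 between 18455 and 45265 scaled TPM and Ckm between 24504 and 42548. The sum over 10 skeletal muscle genes was 114535 to 181241 scaled TPM in C26 and 184714 to 207752 in Control samples. Of these genes 0 were called higher and 1 lower. By FPKM as deposited 5 were lower, and after quantile normalization 2 were higher and 1 lower. Adipocyte genes (8 listed) summed to 744 to 910 scaled TPM in C26 samples and to 6526, 3746 and 859 in Control replicates 1 to 3, and 6 of them were called lower. The 8 fibroblast genes summed to 285 to 421 against 533 to 751, and 4 of them were called lower, or 7 by FPKM as deposited. Of 7 endothelial genes 2 were called lower, with sums of 88.3 to 92.4 against 96.9 to 136, and of 5 Schwann cell and nerve genes 2, with sums of 36.8 to 76.0 against 72.3 to 180, and both counts were 1 without TMM and after quantile normalization. Of all genes, 14.5% were called lower. Of the 6 leukocyte genes with values, 0 passed the test described below (limma), and 2 had an unadjusted p under 0.05. Ptprc, a marker of all leukocytes, was at 57.9 scaled TPM in Control replicate 3 and at most 1.21 in the other samples. The macrophage gene Cd68 was at 422 in C26 replicate 2 and between 2.96 and 61.7 elsewhere, while the other 5 leukocyte genes were not higher in that sample than in C26 replicate 1. C26 replicate 3 stood apart in the muscle gene Mb, at 9286 scaled TPM against 488 and 127 in the other C26 samples. It also stood apart in the myosin genes Myh1 (4837 against 530 and 435) and Myh2 (717 against 150 and 129). The 6 slow fiber genes, of which 0 were called by limma and 0 had an unadjusted p under 0.05, summed to 238, 56.9 and 664 scaled TPM in C26 replicates 1 to 3 and to 695, 234 and 396 in the Control replicates. In whole muscle, fewer cells of a type and less RNA per cell cannot be told apart. The part of these differences in the results below was not tested.

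In C26 muscle 4 of the 10 brake genes were higher and 1 was lower. Ddit4, Sesn1, Eif4ebp1 and Tsc1 rose, and Deptor fell. Ddit4l, Sesn2, Sesn3, Akt1s1 and Eif4ebp2 did not pass the test. The test was limma on log2(scaled TPM + 1) over all 13363 genes, with a gene called when its Benjamini-Hochberg adjusted p was under 0.05. Of all genes, 19.4% were called higher, against 40% of the brake genes, and 14.5% were called lower, against 10%. By FPKM as deposited the split over all genes was 1678 higher and 2504 lower, in place of 2587 and 1932, while the brake genes still gave 4 and 1. Ddit4, Sesn1 and Eif4ebp1 also rose by more than 4-fold, as 1.76% of all genes did. The median log2 fold change was 0.47 over the brake genes and -0.05 over all genes, and the median size of change was 1.64 and 0.49. For 8 of the 10 brake genes, 6 higher and 2 lower in C26, no C26 value fell within the Control range or the reverse, and the same held for 53.5% of all genes. Ranked by fold change among the 13363 genes, Ddit4 was at rank 7 from the top, Sesn1 at rank 18, Eif4ebp1 at rank 42 and Tsc1 at rank 328. The study itself singled out Ddit4 with these samples among its data. It also picked Eif4ebp1 for qPCR as a gene that rose both in its C26 data and in its merged data. The changes of Ddit4 and Eif4ebp1 here are therefore not independent evidence. All 5 calls held in each of 15 alternative fits.

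**Figure D1:**
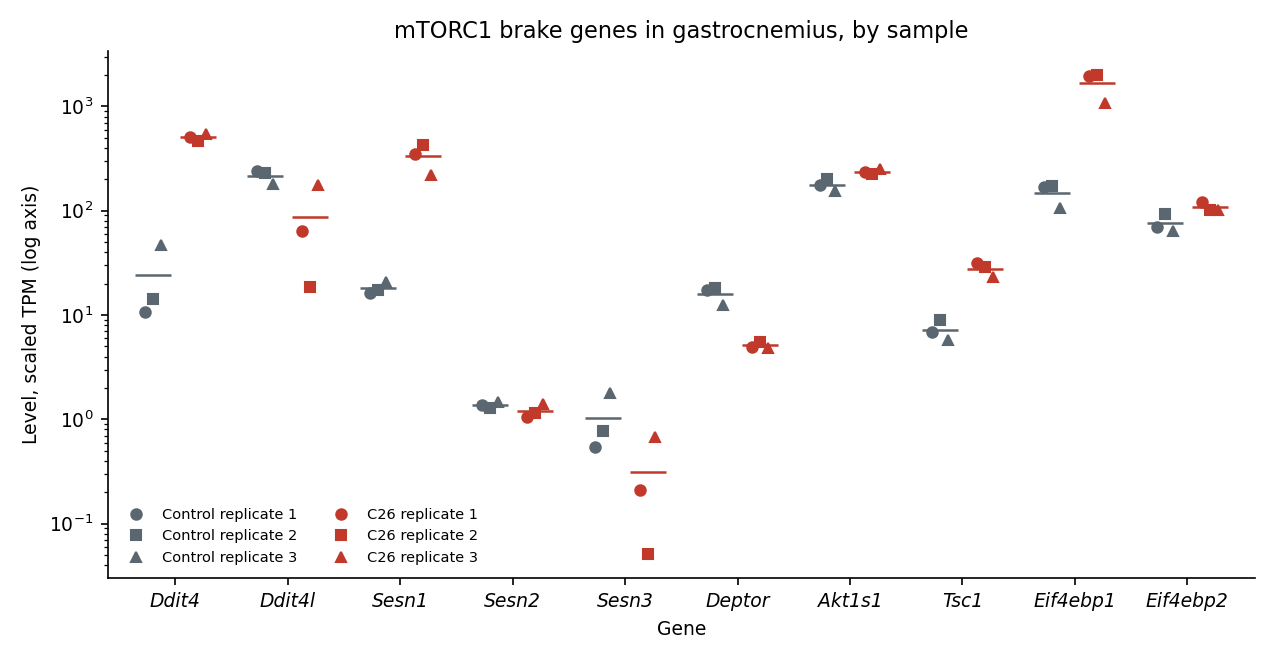
Level of each brake gene in scaled TPM (log axis) in the 3 Control and 3 C26 samples, with a line at the mean of each group and a marker shape for each replicate number. Ddit4, Sesn1, Tsc1 and Eif4ebp1 lie higher and Deptor lower in C26 samples without overlap, while the groups overlap for Sesn2 and Sesn3.

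**Figure D2:**
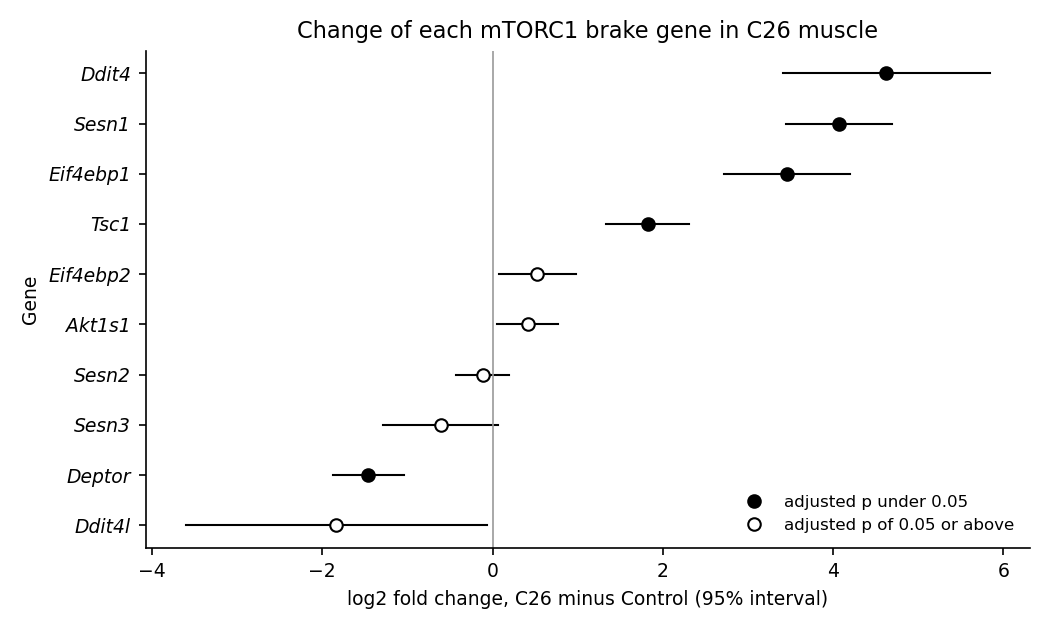
log2 fold change (C26 minus Control, on log2(scaled TPM + 1)) of each brake gene with its 95% interval from limma. Filled circles mark the 5 genes with an adjusted p under 0.05, from Ddit4 at 4.62 to Deptor at -1.46, and open circles the other 5.

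Ddit4 was scarce in Control muscle and abundant in C26 muscle. It stood at 504, 462 and 545 scaled TPM in C26 replicates 1 to 3 and at 10.7, 14.2 and 47.1 in Control replicates 1 to 3. The C26 samples lay close together, and the spread came from Control replicate 3. The means were 504 ± 41.4 and 24.0 ± 20.1 (SD, n = 3), a 21.0-fold difference, and the log2 fold change was 4.62 (adjusted p = 0.00325, SE 0.51, limma with Benjamini-Hochberg adjustment). Control replicate 3 was also the sample with high Ptprc, and without it the log2 fold change was 5.24. Within each sample, 97.7% to 98.0% of all listed genes lay below Ddit4 in C26 muscle, against 58.8%, 64.9% and 86.9% in Control replicates 1 to 3. The Ddit4 gene (GRCm38, chr10:59949669-59951834, minus strand) has a single annotated transcript of 3 exons and 1755 bases.

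Its relative Ddit4l ran the other way without passing the test. Ddit4l was at 64.0, 18.5 and 176 scaled TPM in C26 replicates 1 to 3 and at 240, 230 and 182 in the Control replicates. Every C26 value was below every Control value, but C26 replicate 3 came close to the lowest Control sample. The log2 fold change was -1.84 (95% interval -3.60 to -0.07, adjusted p = 0.0963, limma with Benjamini-Hochberg adjustment). C26 replicate 3 decided this call. Without it the log2 fold change was -2.61 with an adjusted p of 0.0136 by limma, and without C26 replicate 2 it was -1.02. Among the C26 samples, Ddit4l, Mb and the slow fiber sum were all lowest in replicate 2 and highest in replicate 3. Among the Control samples they kept no common order. There Ddit4l was lowest in replicate 3, Mb in replicate 1 and the slow fiber sum in replicate 2. The part of these differences in the Ddit4l result was not tested. The pair summed to 590 ± 122 scaled TPM in C26 and 241 ± 11.4 in Control muscle, a 2.44-fold difference. Ddit4 made up 75.6% to 96.2% of that sum in C26 samples and 4.27% to 20.6% in Control samples, so the more abundant gene of the pair was Ddit4 in every C26 sample and Ddit4l in every Control sample.

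The sestrin change came from Sesn1. Sesn1, which binds GATOR2 as the other sestrins do and is a known p53 target, was at 351, 422 and 221 scaled TPM in C26 replicates 1 to 3 and at 16.3, 17.4 and 21.0 in the Control replicates. All C26 samples were far above the highest Control sample, with C26 replicate 3 the lowest of them. The log2 fold change was 4.07 (adjusted p = 0.000884, SE 0.26, limma with Benjamini-Hochberg adjustment). Sesn2 was at 1.05, 1.15 and 1.40 scaled TPM in C26 and 1.38, 1.29 and 1.47 in Control samples. The groups overlapped, and the log2 fold change of -0.12 (95% interval -0.43 to 0.20, adjusted p = 0.508 by limma) turned to 0.31 under quantile normalization. Sesn3 was at 0.213, 0.0514 and 0.681 scaled TPM in C26 and 0.539, 0.779 and 1.79 in Control samples. The groups overlapped, and the value of C26 replicate 2 was deposited as 0.03 FPKM, near the last decimal given. The log2 fold change was -0.61 (95% interval -1.29 to 0.06, adjusted p = 0.135 by limma), and its size depended on the fit, with -1.61 at a pseudocount of 0.1 (adjusted p = 0.0966 by limma), -0.32 under quantile normalization and -0.36 without Control replicate 3. Summed over the family, sestrin RNA was 333 ± 102 scaled TPM in C26 and 20.6 ± 3.15 in Control muscle, a 16.1-fold difference. Sesn1 held 86.5% to 89.5% of the sum in Control samples and 99.1% to 99.7% in C26 samples. Sesn1 lies on the plus strand of the same chromosome as Ddit4 (chr10:41809935-41908424), and its main transcript has 10 exons and 2600 bases.

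Tsc1 rose and Deptor fell, while the change of Akt1s1 was small. Tsc1, the stabilizing subunit of the TSC complex, was at 31.6, 28.9 and 23.0 scaled TPM in C26 replicates 1 to 3 and at 6.81, 9.01 and 5.79 in the Control replicates. The groups were well apart. The mean was 3.86-fold higher in C26, and limma gave a log2 fold change of 1.82 on log2(scaled TPM + 1) (adjusted p = 0.00336, SE 0.20, limma with Benjamini-Hochberg adjustment). Deptor, which binds and inhibits mTOR, was at 4.98, 5.55 and 4.88 scaled TPM in C26 and at 17.3, 18.3 and 12.5 in Control samples. Its C26 values were nearly alike and lay below all Control values. The mean was 3.12-fold lower in C26, and limma gave a log2 fold change of -1.46 on log2(scaled TPM + 1) (adjusted p = 0.00395, SE 0.18, limma with Benjamini-Hochberg adjustment). Deptor was the only brake gene called lower with all samples in the fit. Akt1s1, the Raptor-binding inhibitor, was at 235, 224 and 251 scaled TPM in C26 and at 176, 202 and 156 in Control samples. The groups did not overlap, but the log2 fold change of 0.42 (95% interval 0.06 to 0.77, adjusted p = 0.0716 by limma) missed the threshold and became -0.0085 under quantile normalization.

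Eif4ebp1 was the most abundant brake gene in C26 muscle. It encodes 4E-BP1, a direct mTORC1 target that blocks eIF4E. Its level was 1946, 2013 and 1084 scaled TPM in C26 replicates 1 to 3 and 169, 172 and 107 in the Control replicates. C26 replicate 3 and Control replicate 3 were the lowest of their groups, and the groups were far apart. The mean was 11.2-fold higher in C26, and limma gave a log2 fold change of 3.46 on log2(scaled TPM + 1) (adjusted p = 0.00197, SE 0.31, limma with Benjamini-Hochberg adjustment). Its paralog Eif4ebp2 was at 122, 101 and 101 scaled TPM in C26 and 70.1, 93.3 and 63.4 in Control samples. The groups did not overlap, and the log2 fold change of 0.53 (95% interval 0.08 to 0.98, adjusted p = 0.0704 by limma) missed the threshold with all samples passed without Control replicate 2, at 0.69 (adjusted p = 0.0400), and was 0.12 under quantile normalization (adjusted p = 0.608). The remaining paralog, Eif4ebp3, was low at 0.903 to 1.29 scaled TPM in C26 and 0.288 to 3.17 in Control samples, and was not called (log2 fold change -0.32, adjusted p = 0.593 by limma). The 4E-BP genes summed to 1790 ± 524 scaled TPM in C26 and 227 ± 48.0 in Control muscle, a 7.88-fold difference. Eif4ebp1 made up 91.3% to 95.1% of this sum in C26 and 61.9% to 69.8% in Control samples.

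**Figure D3:**
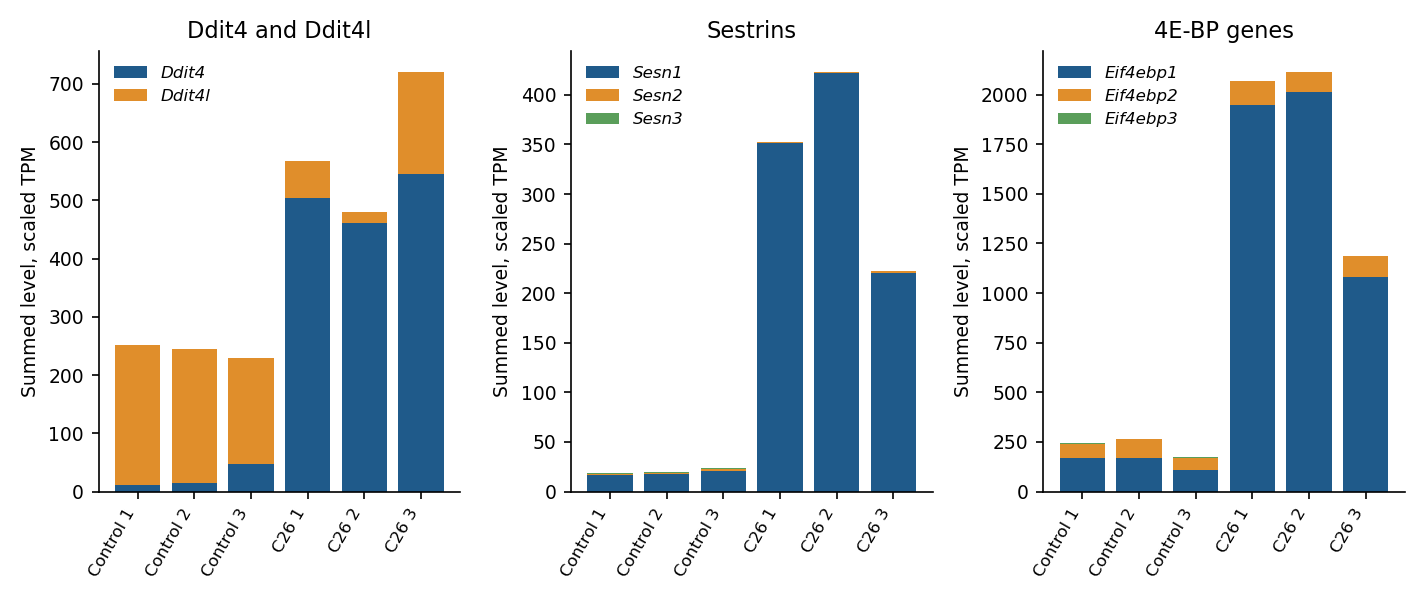
Summed level in scaled TPM of Ddit4 and Ddit4l, of the 3 sestrin genes and of the 3 4E-BP genes in each sample, with each gene's part stacked from 0. The sums are higher in every C26 sample than in every Control sample, and Ddit4, Sesn1 and Eif4ebp1 make up most of each C26 bar.

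The order of the levels changed between the groups. In Control muscle Ddit4l had the highest mean (217 scaled TPM), followed by Akt1s1 (178) and Eif4ebp1 (149), and neighbours among these overlapped in range. Eif4ebp2 (75.6) came next and was apart from its neighbours. Ddit4 (24.0), Sesn1 (18.2) and Deptor (16.04) followed with overlapping ranges, then Tsc1 (7.20), and Sesn2 (1.38) and Sesn3 (1.04), which overlapped. In C26 muscle Eif4ebp1 (1681) came first and Ddit4 (504) next, each apart from its neighbours. Sesn1 (331) overlapped with Akt1s1 (237). Eif4ebp2 (108), Ddit4l (86.2) and Tsc1 (27.8) formed a chain of overlapping ranges, because Ddit4l varied widely. Deptor (5.14), Sesn2 (1.198) and Sesn3 (0.315) were last, each apart from the next.

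C26 replicate 3 held a different place for different brake genes. Its distance from the Control mean was expressed as a percentage of the distance of the other C26 samples, on the log2 scale. For Ddit4 it stood at 104% and for Deptor at 106%, level with or beyond the other C26 samples. For Sesn1 (81.5%), Tsc1 (80.6%), Eif4ebp1 (76.8%) and Eif4ebp2 (76.7%) it was nearer to the Control mean, by about the amount seen over the 4519 called genes, whose median was 75.1%. For Ddit4l it stood at 11.2%, close to the Control mean. Among the genes that were not called, Akt1s1 stood at 136%, Sesn3 at 28.4% and Sesn2, whose groups overlapped, at -7.51%. The part of the sample's high Mb, Myh1 and Myh2 in these positions was not tested.

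Ratios between genes of the same sample do not depend on a factor applied to all genes of that sample, such as TMM. Quantile normalization is not such a factor. Of 8 ratios computed on the deposited FPKM, 7 did not overlap between the groups, 5 higher and 2 lower in C26. Some of these ratios share Sesn1 or Eif4ebp1, and 53.5% of single genes did not overlap either, so the count says little of the brake genes as a set. The exact two-sided permutation test cannot give a p under 0.1 for 3 samples against 3, and each of these 7 ratios reached that p = 0.1, or 0.114 after Benjamini-Hochberg adjustment over the 8. Ddit4 to Ddit4l was 7.88, 24.98 and 3.09 in C26 and 0.0446, 0.0616 and 0.259 in Control samples, 94.96-fold higher by the geometric means. As a log2 difference this was 6.57, and it was 5.79 without C26 replicate 2, 7.30 without C26 replicate 3 and 7.34 without Control replicate 3. Eif4ebp1 to its binding target Eif4e was 36.9, 33.9 and 17.0 in C26 and 2.06, 1.89 and 1.60 in Control samples, 15.1-fold higher. This ratio combined the rise of Eif4ebp1 with an Eif4e level that was not called in the fit used here. Eif4ebp1 to Eif4ebp2 was 15.9, 19.9 and 10.7 against 2.42, 1.84 and 1.69, 7.66-fold higher. Tsc1 to Tsc2 was 1.12, 1.08 and 0.982 in C26 and 0.439, 0.427 and 0.402 in Control samples, 2.51-fold higher. The Tsc1 to Tsc2 ratio had the tightest replicates of all, and the partners were near parity in C26 muscle. Deptor to Mtor was 1.05, 1.95 and 1.07 against 9.26, 12.7 and 6.33, 6.99-fold lower in C26. Sesn2 to Sesn1 was 20.4-fold lower in C26. Sesn1 to Sesn3 was 82.2-fold higher, a log2 difference of 6.36 that became 5.20 without C26 replicate 2, 7.53 without C26 replicate 3 and 4.68 with a pseudocount of 1 on scaled TPM. Akt1s1 to Rptor was 22.1, 16.9 and 17.1 against 17.0, 15.1 and 16.1, which overlapped (1.16-fold higher, exact permutation p = 0.2).

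**Figure D4:**
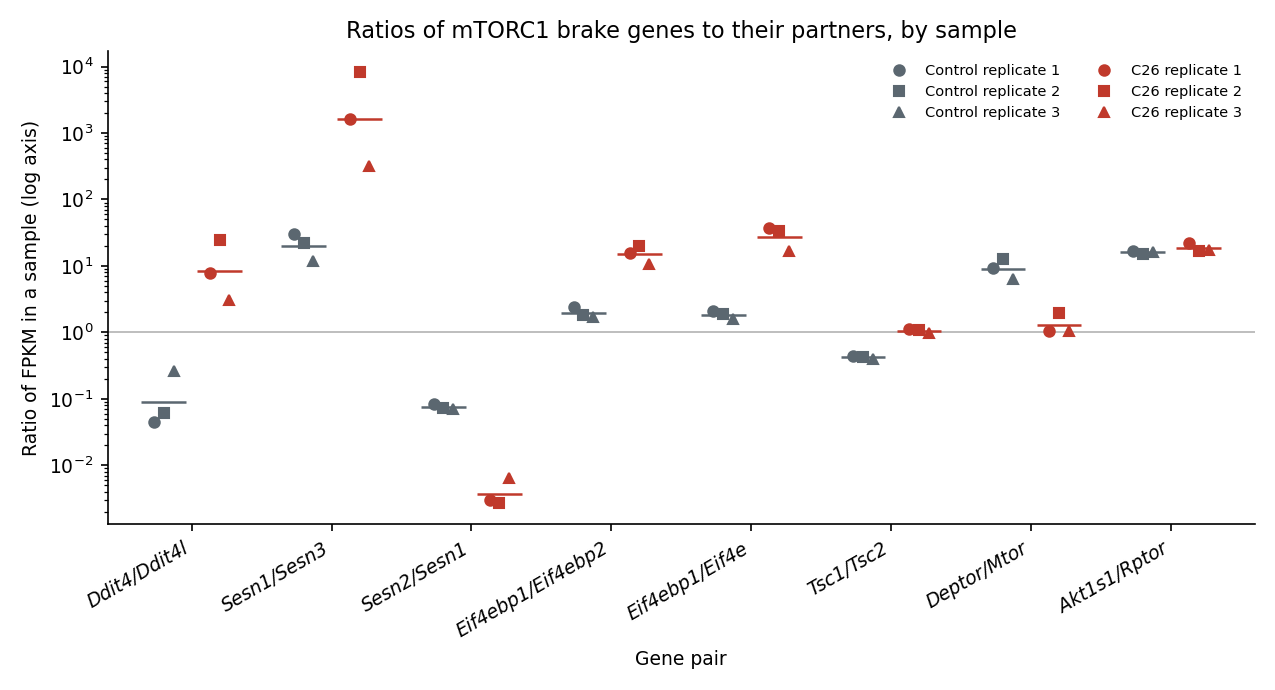
Ratio of the deposited FPKM of 2 genes within a sample (log axis) for 8 gene pairs in the 3 Control and 3 C26 samples, with a line at the geometric mean of each group. Ddit4 to Ddit4l lies above 1 in all C26 samples and below 1 in all Control samples, and only Akt1s1 to Rptor overlaps.

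The rest of the mTORC1 pathway changed less than Ddit4, Sesn1 and Eif4ebp1, which are the brake genes with the largest changes in these data. The other brake genes lay between -1.84 and 1.82 in log2 fold change, and the pathway genes between -2.96 and 1.496. In 10 lists with 68 genes tested, brake genes left out, 19 were higher (27.9%, against 19.4% of all genes), 10 were lower (14.7%, against 14.5%) and 39 were not called, with a median log2 fold change of 0.11. Without C26 replicate 1 the shares higher were 8.82% of the pathway genes and 8.42% of all genes, and without Control replicate 1 they were 8.82% and 8.61%, so the excess over all genes did not hold. In the same fits 1.47% and 2.94% of the pathway genes were lower, against 5.01% and 5.43% of all genes. Of the 68 genes, with all samples in the fit, 0 rose by more than 4-fold and 1 fell by more than 4-fold. The surplus of higher over lower calls depended on the scaling, with 12 higher and 13 lower by FPKM as deposited and 12 and 11 after quantile normalization, and no called gene changed its sign. Under TPM without TMM, FPKM as deposited and quantile normalization alike, 10 of the 19 higher and 7 of the 10 lower genes were still called. Tsc2, Seh1l, Sec13, Rraga, Prkab1 and Rps6kb1 lost their call in each of these 3, and Rragc, Prkaa2, Prr5l, Castor1 and Ywhab were among those that lost it in 1 or 2 of them.

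In the mTORC1 core, Mtor was higher in C26, at 4.06 against 1.76 scaled TPM (log2 fold change 0.85, adjusted p = 0.0207 by limma). Mlst8 was lower (-0.65, adjusted p = 0.0309). Rptor, at 12.9 against 11.1 scaled TPM, was not called (0.19, adjusted p = 0.445). Of 6 genes of mTORC2 and its assembly factors, only Prr5l was called, lower at -0.64, and Rictor had a log2 fold change of -0.01. Next to Tsc1 in the TSC complex, the Rheb-inactivating subunit Tsc2 was higher by 0.61 (adjusted p = 0.0436 by limma) and the small subunit Tbc1d7 was not called at -1.02 (adjusted p = 0.0535). In each of the 3 other scalings Tsc2 was not called and Tbc1d7 was called lower. Rheb, the activator that this complex restrains, was itself higher, at 236, 242 and 162 scaled TPM in C26 against 98.6, 99.0 and 81.7 in Control samples (log2 fold change 1.17, adjusted p = 0.0088 by limma).

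On the amino acid branch, the lists held calls in both directions. Of 5 GATOR2 genes, whose products the sestrins bind, Mios (log2 fold change 1.09), Seh1l (1.02) and Sec13 (0.82) were higher and Wdr24 (-0.68) was lower, and of the higher genes only Mios was also called in the 3 other scalings. Of 6 genes of GATOR1 and its anchor KICSTOR, Nprl3 was higher (0.95) and Kptn lower (-1.37). Of 5 amino acid sensors, the leucyl-tRNA synthetase gene Lars was higher (0.91) and the arginine sensor Castor1 lower (-0.60). Among 12 genes of the Rag GTPases, Ragulator and folliculin, Flcn (1.496), Rragc (0.90) and Rraga (0.52) were higher and Lamtor4 (-1.11) and Lamtor2 (-0.54) lower. Flcn, which activates the Rag GTPases, went from 34.2 to 98.2 scaled TPM. In the AMPK list, whose kinase restrains mTORC1 through Tsc2 and Raptor, the catalytic subunit gene Prkaa2 (1.16) and Prkab1 (0.73) were higher. The muscle-enriched AMPK subunit gene Prkag3 fell most of the 68, from 132 to 16.2 scaled TPM (log2 fold change -2.96, adjusted p = 0.00082 by limma).

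Downstream of mTORC1, 6 of 12 S6 kinase and cap-binding genes were higher and 0 were lower, against 19.4% and 14.5% of all genes. By FPKM as deposited 5 were higher and 1 was lower, and after quantile normalization 4 and 1. The initiation factor genes Eif4a1 (log2 fold change 1.40) and Eif4b (1.38), the translation repressor gene Larp1 (1.19), the S6 kinase gene Rps6kb1 (1.05) and the elongation factor gene Eef2 (1.01) led these calls. Eif4e, the partner of the 4E-BPs, was at 52.8, 59.4 and 63.7 scaled TPM in C26 and 82.2, 90.7 and 67.1 in Control samples and was not called (-0.44, adjusted p = 0.0828 by limma), though it was called lower by FPKM as deposited (-0.64, adjusted p = 0.0158) and after quantile normalization (-0.84, adjusted p = 0.0125). Of 7 genes for 14-3-3 proteins, which bind phosphorylated Akt1s1 and Tsc2, Ywhaq (-1.002) and Ywhab (-0.85) were lower.

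**Figure D5:**
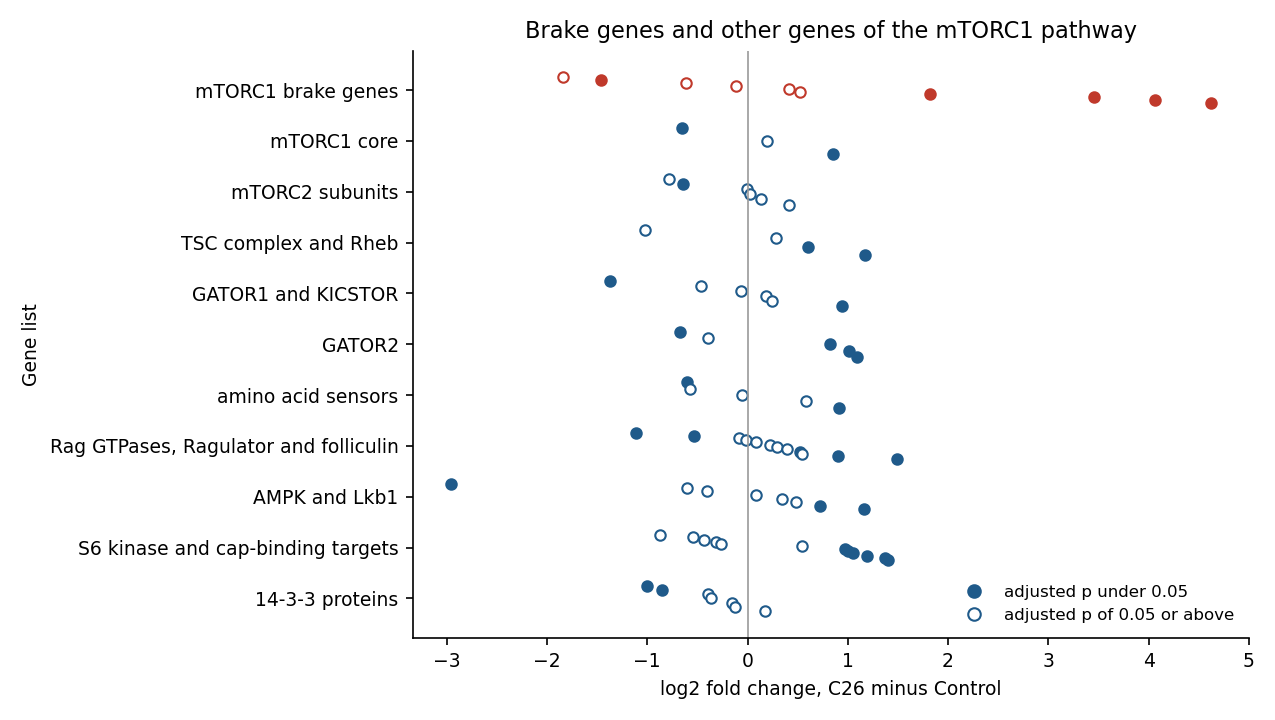
log2 fold change (C26 minus Control) of the 10 brake genes (red, top row) and of the 68 other genes of 10 mTORC1 pathway lists (blue), with filled circles for an adjusted p under 0.05. Ddit4, Sesn1 and Eif4ebp1 lie beyond 3, while the pathway genes lie between -2.96 and 1.496.

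Genes with the profile nearest to that of Ddit4 over the 6 samples were sought among 11214 genes with a mean TPM of at least 1. The measure was the root mean square difference of the centred log2 values, with a median of 2.39 over all genes compared. The nearest were Cebpd (0.507), which encodes a stress-responsive C/EBP factor, the brake gene Sesn1 (0.685), the interleukin 6 receptor gene Il6ra (0.702), the small Maf gene Maff (0.706) and the cell cycle inhibitor gene Cdkn1a (0.750). Cebpd was at 408, 314 and 323 scaled TPM in C26 and 16.05, 11.1 and 21.3 in Control samples, and like Ddit4 it was highest among controls in replicate 3. Of the other brake genes, Eif4ebp1 was at rank 37 and Tsc1 at rank 317 by this measure. These genes share their libraries, and the list is a description.

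The start regions of Ddit4, Sesn1 and Tsc1, which rose together, and of the contrasting paralog Ddit4l are shown next. Each window runs from 250 bases before to 50 bases after an annotated start, 300 bases in all, read 5′ to 3′ on the strand of the gene (RefSeq, GRCm38.p6). RefSeq windows matched 8 of the 10 brake genes, all but Eif4ebp1 and Deptor, and Sesn1 had 2. Capitals mark matches on either strand to the motifs searched, which were GTAAACA for FoxO factors, TGATGNAA for ATF4 with a C/EBP partner, ACGTG as the core bound by hypoxia-inducible factors, ACANNNTGT for the glucocorticoid receptor and related receptors, and TGACG for CREB and ATF factors. The windows are Ddit4 at chr10:59951721-59952020 (minus strand), Sesn1 at chr10:41810324-41810623 and chr10:41887189-41887488 (plus strand), Tsc1 at chr2:28640983-28641282 (plus strand) and Ddit4l at chr3:137623422-137623721 (plus strand).
Ddit4: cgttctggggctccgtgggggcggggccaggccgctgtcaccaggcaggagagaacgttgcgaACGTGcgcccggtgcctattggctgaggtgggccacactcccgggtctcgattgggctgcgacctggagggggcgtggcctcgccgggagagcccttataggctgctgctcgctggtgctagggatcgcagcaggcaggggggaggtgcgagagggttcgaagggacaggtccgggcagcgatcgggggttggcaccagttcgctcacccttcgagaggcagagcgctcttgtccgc
Sesn1, first start: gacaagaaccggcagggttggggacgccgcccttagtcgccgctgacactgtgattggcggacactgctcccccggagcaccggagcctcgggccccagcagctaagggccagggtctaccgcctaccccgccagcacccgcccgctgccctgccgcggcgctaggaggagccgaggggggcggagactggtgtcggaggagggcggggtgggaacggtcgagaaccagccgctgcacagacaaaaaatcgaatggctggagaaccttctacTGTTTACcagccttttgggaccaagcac
Sesn1, second start: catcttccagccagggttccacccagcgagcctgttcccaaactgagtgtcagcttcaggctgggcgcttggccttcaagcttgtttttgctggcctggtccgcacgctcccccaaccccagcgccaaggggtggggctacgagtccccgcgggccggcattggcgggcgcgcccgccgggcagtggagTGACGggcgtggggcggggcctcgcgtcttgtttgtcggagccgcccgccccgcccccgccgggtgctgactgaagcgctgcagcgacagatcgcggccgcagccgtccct
Tsc1: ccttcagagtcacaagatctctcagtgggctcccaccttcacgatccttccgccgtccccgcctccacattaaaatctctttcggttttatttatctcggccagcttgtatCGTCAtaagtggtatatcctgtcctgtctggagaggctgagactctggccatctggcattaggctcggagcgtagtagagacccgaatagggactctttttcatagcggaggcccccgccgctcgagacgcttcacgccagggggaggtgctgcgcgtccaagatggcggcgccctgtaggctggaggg
Ddit4l: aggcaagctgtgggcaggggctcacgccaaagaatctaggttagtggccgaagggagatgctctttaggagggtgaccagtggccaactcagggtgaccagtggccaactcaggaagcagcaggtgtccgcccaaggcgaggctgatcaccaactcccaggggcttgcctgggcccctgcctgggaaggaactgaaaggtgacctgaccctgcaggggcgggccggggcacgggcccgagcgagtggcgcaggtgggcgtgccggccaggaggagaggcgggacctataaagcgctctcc
In the Ddit4 window ACGTG occurred in 1 place, starting 187 bases before the start site, and 19.6% of all 32851 windows hold this core. The first Sesn1 window held the FoxO motif as its reverse complement TGTTTAC, 23 bases after the start, and 3.65% of all windows hold it on either strand. The second Sesn1 window held TGACG and the Tsc1 window its reverse complement CGTCA, as 20.8% of all windows do on either strand. The Ddit4l window held none of the 5 motifs. Over the 9 windows of brake genes, ACGTG was found in 2, TGACG in 3, the FoxO motif in 1, and the ATF4 and steroid receptor motifs in 0, which 3.97% and 6.85% of all windows hold. Such matches are a description and do not show binding.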

How the data were processed

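RNA from the gastrocnemius was sequenced in 3 C26 and 3 Control samples after removal of rRNA with RNaseH, as single-end reads of 50 bases on a BGISEQ-500. The authors filtered the reads, aligned them with bowtie2 and obtained FPKM per gene with RSEM. The deposited values are these FPKM, to 2 decimals, under Entrez gene IDs, and 13363 genes are listed, each above 0 in every sample (lowest 0.01). Symbols were found for 13327. The submitters' processing notes name HISAT2 2.0.4, Bowtie2 2.2.5, RSEM 1.2.12 and mm9, whereas the methods name GRCm38.p5. The file carries no coordinates, and those given are of GRCm38 (GENCODE M21 genes, RefSeq start regions). An extraction note in the labels names other cells, so muscle markers were checked. Reads shared by paralogs may be split by RSEM. The depth per sample is unknown, and precision rests on the spread between samples.

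Groups and replicate numbers were taken from the sample titles. FPKM were rescaled to TPM, divided by TMM factors (trimming 30% by log ratio and 5% by mean, without weights) and log2-transformed after adding 1, so fold changes of low genes are understated. The groups were compared with the moderated test of limma 3.58.1 (R 4.3.3), two-sided, with Benjamini-Hochberg adjustment over every listed gene. Ratios, exact permutation tests and figures used Python 3.11.15, scipy 1.17.1 and matplotlib 3.10.9. The fit was tested on simulated data. The brake genes and all gene lists were chosen with earlier results of these data known. Named pathway genes are partners of the brake genes (Mtor, Rptor, Mlst8, Rictor, Tsc2, Tbc1d7, Rheb, Eif4e and Eif4ebp3) and up to 5 called genes of each list with the largest changes. Ptprc, Cd68, Mb, Myh1, Myh2, Acta1 and Ckm are named from the marker lists for their levels. Kics2 was not matched. The alternatives were FPKM as deposited, TPM without TMM, quantile normalization, a pseudocount of 0.1, a minimum mean TPM of 1, a replicate block, an intensity trend, an ordinary linear model and leaving out each sample. Leaving out both replicates numbered 3 was chosen after seeing the data.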

Additional observations from a re-analysis of the deposited data

How the results depend on the processing

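Over all brake genes and alternative fits, the change kept its direction and its side of the threshold 143 times, gained a call 4 times and turned in direction 2 times. The calls of Ddit4, Sesn1, Tsc1, Eif4ebp1 and Deptor held in all 15 alternatives. Under quantile normalization the log2 fold change of Sesn2 was 0.31 and that of Akt1s1 -0.0085. The calls gained were Ddit4l without C26 replicate 3, Ddit4l and Sesn3 without both replicates numbered 3, and Eif4ebp2 without Control replicate 2. Leaving out 1 sample gave 4 to 5 higher and 1 to 2 lower brake genes, and leaving out C26 replicate 3 and Control replicate 3 gave 3 lower. Pathway genes higher in C26, 19 in all, numbered 12 by FPKM as deposited, 12 after quantile normalization, 8 by an ordinary linear model and 6 to 20 with 1 sample left out (6 without C26 replicate 1 or Control replicate 1, 10 without C26 replicate 2). Pathway genes lower, 10 in all, numbered 3 by an ordinary linear model, 1 to 14 with 1 sample left out (1 without C26 replicate 1, 2 without Control replicate 1, 4 without C26 replicate 2, 5 without Control replicate 2), while without both replicates numbered 3 the counts were 22 higher and 16 lower. The cause was not tested. With a replicate block, 14 pathway genes were higher and 4 lower, the adjusted p of Ddit4 was 0.0156, and all genes gave 1840 higher and 1236 lower. Same-numbered samples correlated at -0.04 to -0.11 in their deviations from the group means, and no sample correlated best with its own number. With 3 samples in a group these deviations are tied to each other, so the correlations cannot exclude a pairing. The sources describe none. Over all genes an ordinary linear model gave 1519 higher and 958 lower, in place of 2587 and 1932, and leaving out 1 sample 1125 to 2957 and 669 to 2355, lowest without C26 replicate 1. Of the ratios, 7 to 8 did not overlap with 1 sample left out, and with a pseudocount of 1 on scaled TPM 8 did not. Sesn3 could not be fitted with a minimum mean TPM of 1. The depth is unknown, so counting error for Sesn2 and Sesn3, the brake genes with the lowest levels, could not be given.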

Other observations

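Counts are given here for lists of genes driven by factors that are also known to induce Ddit4 or the sestrins, and the lists were not tested against each other. Of 9 FoxO factors and muscle targets, brake genes left out, 8 were higher and 0 lower, with a median log2 fold change of 2.68. They included the ubiquitin ligase genes Trim63 (4.89) and Fbxo32 (4.36), the autophagy gene Gabarapl1 (4.25) and the insulin signalling gene Irs2 (2.95). Of 10 genes of the glucocorticoid receptor list, 8 were higher (7 by FPKM as deposited and after quantile normalization) and 0 lower, with a median of 1.70, among them Cebpd (4.38), Fkbp5 (3.62) and Klf15 (2.70). Of 8 p53 targets, 5 were higher and 1 lower (5 and 2 without TMM and by FPKM as deposited, 4 and 1 after quantile normalization), with Cdkn1a at 4.17, Btg2 at 2.77, Gadd45a at 2.19 and Plk2 at -1.14. Calls by limma, with Benjamini-Hochberg adjustment over all genes, numbered 19.4% higher and 14.5% lower over the whole table.

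The ATF4 and hypoxia lists had shares of calls near those of all genes. Atf4 itself was at 570, 574 and 571 scaled TPM in C26 and 172, 188 and 187 in Control samples (log2 fold change 1.64). Of 11 genes of its list 3 were higher (2 to 4 under the other scalings), including the glutathione-degrading enzyme gene Chac1 (1.85), and 2 were lower, the serine synthesis genes Phgdh (-3.36) and Psat1 (-1.64). Of 10 hypoxia-inducible genes, Egln3 (3.48) and Bnip3l (1.44) were higher and Ankrd37 (-1.77) and Car9 (-1.32) lower. Whether any of these factors bears on the brake genes was not tested. Of 4 erythroid genes, all were higher (3 by FPKM as deposited, 2 after quantile normalization), with a sum of 1053 to 2248 scaled TPM in C26 and 475 to 761 in Control samples. Of 5 satellite cell genes Sdc4 was called, higher by 1.45, but not after quantile normalization.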
